A study of Mus musculus with 4 samples.

Results

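The genes of DNA replication and cell division were examined in BV-2 cells, a mouse microglial line, after lipopolysaccharide (LPS). A fixed list of 49 genes was read from a table of counts per RefSeq transcript record, out of 23779 genes with a symbol, and a gene with several records was represented by its most abundant record. The 2 control libraries are titled as 4 h controls, and the other 2 are from cells given LPS, a cell wall component of Gram-negative bacteria, for 4 h at a dose of 10 ng/ml. All were made from total RNA depleted of ribosomal RNA. The labels describe no vehicle for the controls, and their treatment text is the same for every sample. Their growth text also mentions shaking cells off mixed glial cultures, a way to obtain primary microglia, although each sample is labelled as the line. All 4 libraries came from the same line, and BV-2 cells were immortalised with raf and myc oncogenes, so they divide without a normal growth signal. The labels do not say that replicates came from separate cultures, so p-values measure the spread between these libraries, which may be technical. In bulk libraries, fewer cells in a phase and less RNA per cell cannot be told apart.

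Replication starts when Cdc6 and Cdt1 load the Mcm2 to Mcm7 helicase onto DNA in G1 phase. Cyclin D with Cdk4, and then cyclin E with Cdk2, phosphorylate the retinoblastoma protein and free E2F factors, which drive genes of the helicase, of nucleotide synthesis and of the polymerases. Cyclin B with Cdk1, followed by the polo-like and Aurora kinases, carries cells through mitosis, and most mitotic genes are held down in G1 by a repressor complex that binds CHR elements. Macrophages exposed to LPS are known to leave the cycle over the following hours, a process linked to loss of cyclin D1.

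Of the 49 genes, 35 had enough counts to be tested, and cyclin D1 (Ccnd1) was the 1 gene past the threshold of 0.05 for edgeR's adjusted p. It was lower after LPS. Among all 6981 records tested, 1.7% were called lower and 3.82% higher (5.53% in either direction), so 1 called gene in 35 is near the background. Cyclin E1 (Ccne1) was lower by a similar amount and just missed the threshold. The helicase, nucleotide and polymerase genes had negative log2 fold changes, from -0.60 to -0.01, that did not pass. The genes of mitotic entry and exit had a median near 0, with Aurkb at -0.36.

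The median log2 fold change of the 35 genes was -0.26, against -0.01 over all records tested, and 30 of them had a negative value, or 85.7% against 51.7%. Both LPS libraries lay below both controls for 16 of the 35, where 21.9% of all records did, and above both controls for 1, Ccnb2, where 21.4% did. These shares describe the list and were not tested. The median standard error of the 35 fold changes was 0.215 on the log2 scale.

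Which genes were called depended on the control library. Without control replicate 1, 8 genes were called lower (Pola1, Rfc1, Cenpe, Ccne1, Pole, Mki67, Ccnd1 and Kif11) and Cdc20 was called higher, where 6.65% of all records were called lower and 8.51% higher. Without control replicate 2, 10 were called lower (Aurkb, Ccne1, Cdt1, Ccnd1, Pold1, Rfc2, Mcm7, Mcm6, Mcm2 and Mcm5) and Pola1, Cenpe and Kif11 were called higher, against 8.09% and 10.1% of all records. Ccnd1 and Ccne1 were the 2 genes called lower in both of these fits. With LPS replicate 1 or LPS replicate 2 left out no member was called, and only the controls then gave the spread.

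**Figure D1:**
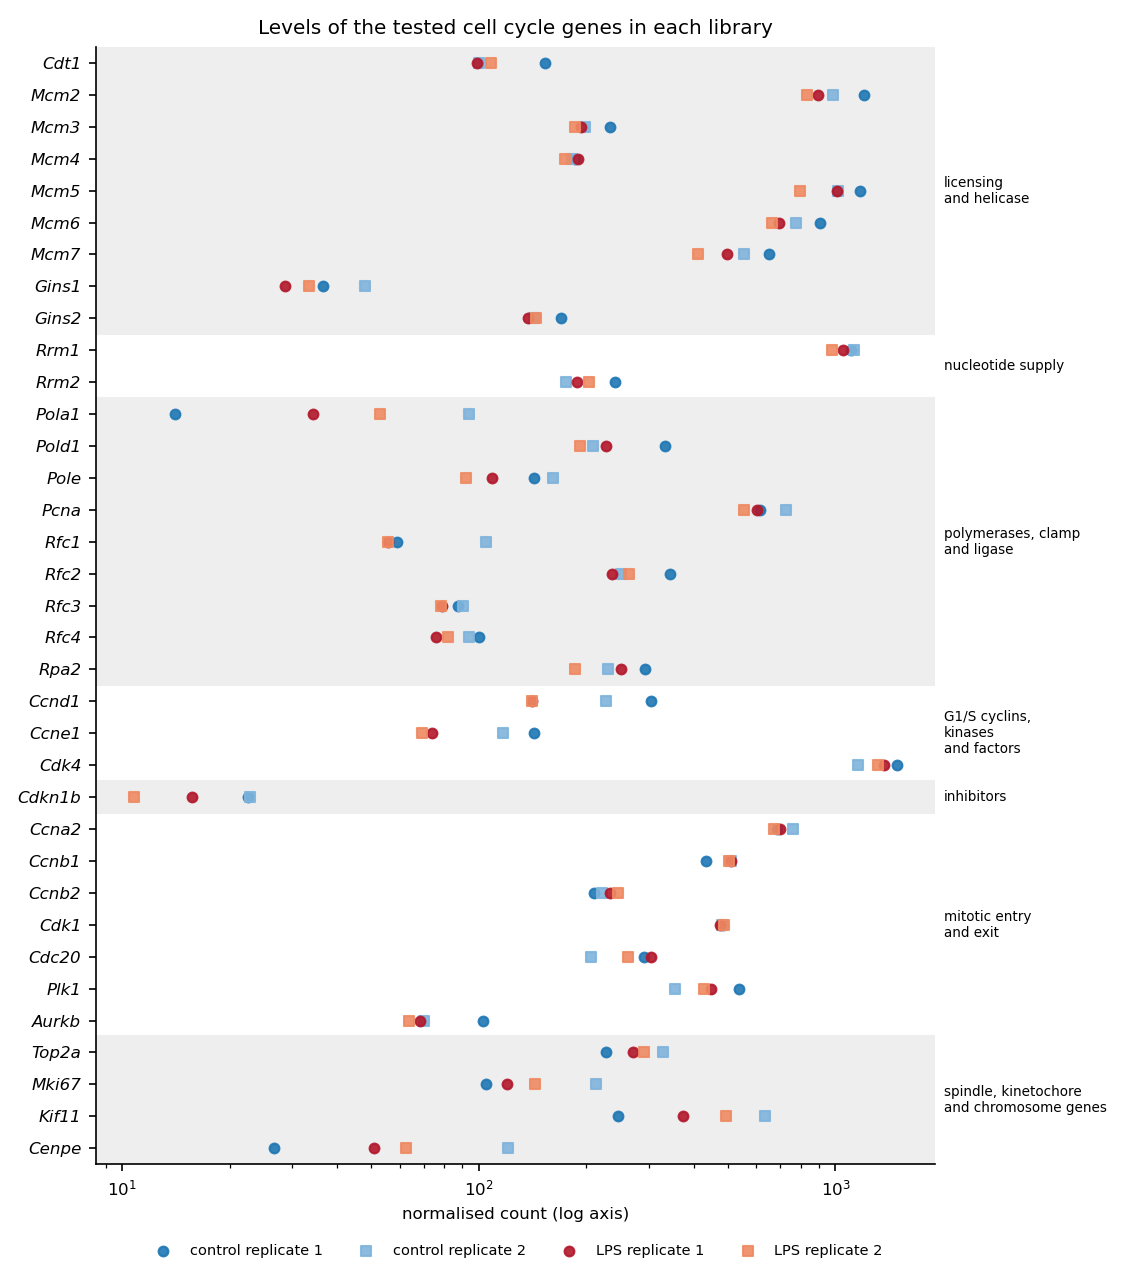
Normalised counts (horizontal log axis) of the 35 tested cell cycle genes in each library, with 1 row per gene, blue for controls, red and orange for LPS, circles for replicate 1 and squares for replicate 2. Ccnd1 and Ccne1 show both LPS libraries well below both controls, whereas Kif11 and Cenpe have the control libraries at the 2 ends.

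Library totals ran from 2778686 to 3368693 counts. The 5 most abundant records were Lars2, Rmrp, Rpph1, Mir6236 and a record without a symbol. They took 67.5% of control replicate 1, 53.4% of control replicate 2, 57.7% of LPS replicate 1 and 56.9% of LPS replicate 2. How much of this share was ribosomal RNA left after depletion was not tested. All other records held from 902176 counts in control replicate 1 to 1425303 in control replicate 2. The 10 microglia and macrophage markers summed to 5321 and 7766 counts in the controls and 7644 to 8340 after LPS, with Itgam at 0. These sums are not scaled for library depth. In normalised counts the 7 tested markers summed to 7480 and 6544 in controls and 7702 and 7472 after LPS. Over the 4 libraries Lyz2 alone held 18355 counts, while Ptprc had 11 and Aif1 had 17. Itgam has 2 records in the table and Ptprc 3, so their counts fall under the limit described next. Aif1 has 1 record, so that limit does not cover its low count. The astrocyte, neuron, oligodendrocyte and fibroblast lists summed to at most 2 counts in any library. The endothelial list had 326 to 526 unscaled counts in controls and 394 to 395 after LPS, almost all from Kdr. Kdr had 459 and 444 normalised counts in controls and 362 and 384 after LPS. Pecam1, Cldn5 and Tek were at 0, of which Pecam1 has 2 records and Tek 3. Of the 20 markers of the other 4 cell types, 10 also have several records, so only the low counts of the 10 with 1 record can be read.

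The other 14 genes could not be read from this table. They were Cdc6 and Cdc45 among the helicase factors, Tyms in nucleotide supply, Rpa1, Lig1 and Fen1 at the fork, Ccne2, Cdk2, E2f1 and Myc at the G1/S boundary, the p21 gene Cdkn1a, and Aurka, Bub1 and Tpx2 in mitosis. Every one of these 14 has 2 or more RefSeq records in the table, and all 34 members with a single record passed the filter. Of the 15 members with several records, 1 passed, Gins1, whose record NM_027014 held 148 counts over the 4 libraries while NM_001163476 held 0. E2f1 had 14 and 4 counts on its 2 records, and no other untested member had more than 3 counts on any record. Myc had 0 counts on 4 records, Tyms 0 on 2 and Tpx2 0 on 5.

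The same split held across the table. Of 19014 genes with 1 record, 34.8% had a tested record, and of 4765 genes with 2 or more, 6.09% did. Fen1, which processes Okazaki fragments, and Tyms, which makes thymidylate, were among those listed at 0. A low count of such a gene is thus no measure of its RNA here, and summing the records of a gene added no member to the 35. What happens to reads shared by records of a gene was not tested, and how the counting tool was set is not given in the sources used here.

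**Figure D2:**
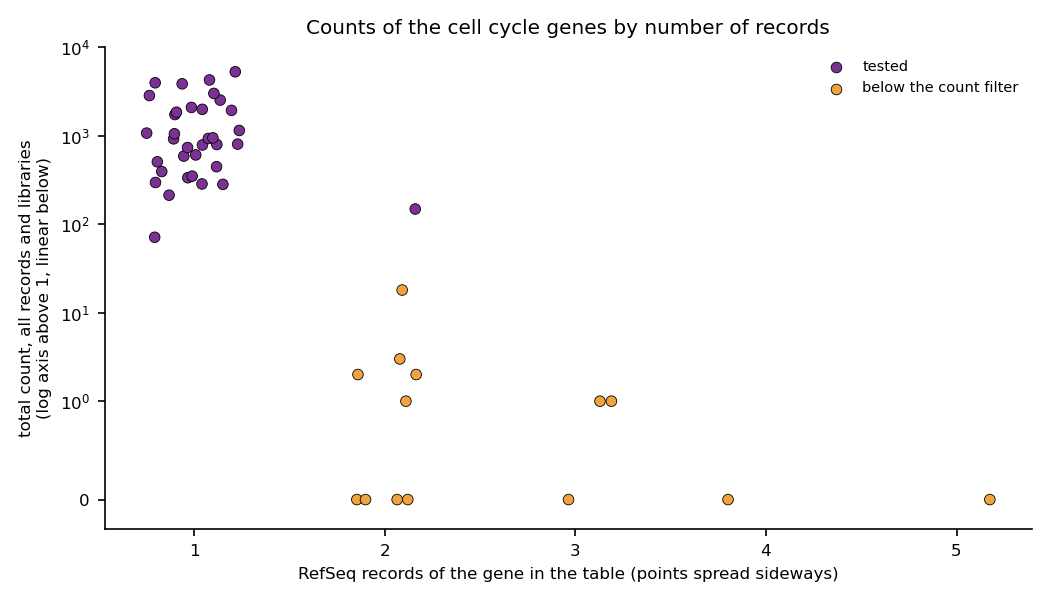
Total count of each of the 49 cell cycle genes over all its records and the 4 libraries (vertical axis, log above 1) against the number of RefSeq records of the gene, with purple points for tested genes and orange for those below the count filter. Genes with 1 record reach 71 to 5252 counts, and Gins1 is the single gene with more records that was tested.

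Ccnd1 encodes cyclin D1, the partner of Cdk4 that links growth signals to entry into S phase (NM_007631, GRCm38.p6 chromosome 7, 144929931 to 144939831). Its normalised counts were 304 and 227 in the control libraries and 141 and 141 after LPS. The groups did not overlap and the LPS libraries were nearly equal. The LPS level was 53.5% of the control level, with a log2 fold change of -0.90 (SE 0.214, 95% interval -1.37 to -0.43, edgeR adjusted p 0.0302). Ccnd1 stayed below the threshold in the fits without a control library, with log2 fold changes of -0.68 without replicate 1 and -1.11 without replicate 2. It was not called without LPS replicate 1 (adjusted p 0.45) or LPS replicate 2 (0.46), where the fold change was -0.89 in both.

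Ccne1 encodes cyclin E1, which activates Cdk2 at the G1/S boundary (NM_007633, chromosome 7, 38097984 to 38107490). It had 143 and 117 normalised counts in controls and 74 and 69.4 after LPS, again without overlap. Its log2 fold change was -0.85 (SE 0.23, interval -1.36 to -0.35) and its adjusted p in edgeR was 0.0586. Without a filter on low counts the value was 0.0436, where 1.6% of records were called lower and 2.79% higher. After removal of the trends with transcript length and GC content it was 0.00354, and over all alternatives the adjusted p ran from 2.41e-05 to 0.708.

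Cdk4, the kinase that cyclin D1 activates, had 1490 and 1155 normalised counts in controls and 1367 and 1315 after LPS, so the LPS libraries lay between the controls. Its log2 fold change was 0.02 with an interval of -0.39 to 0.43. Ccnd1 and the gene of its kinase thus gave different values, although the difference between the genes was not tested. Cdk2, the kinase that cyclin E1 activates, was one of the genes not measured.

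Cdkn1b encodes p27, an inhibitor of cyclin E with Cdk2. It was the least abundant tested member by total count, with 22.5 and 22.8 normalised counts in controls and 15.7 and 10.8 after LPS. The log2 fold change of -0.77 (SE 0.382, interval -1.60 to 0.07) did not pass, with an edgeR adjusted p of 0.391. The other inhibitor, p21, was one of the genes not measured.

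**Figure D3:**
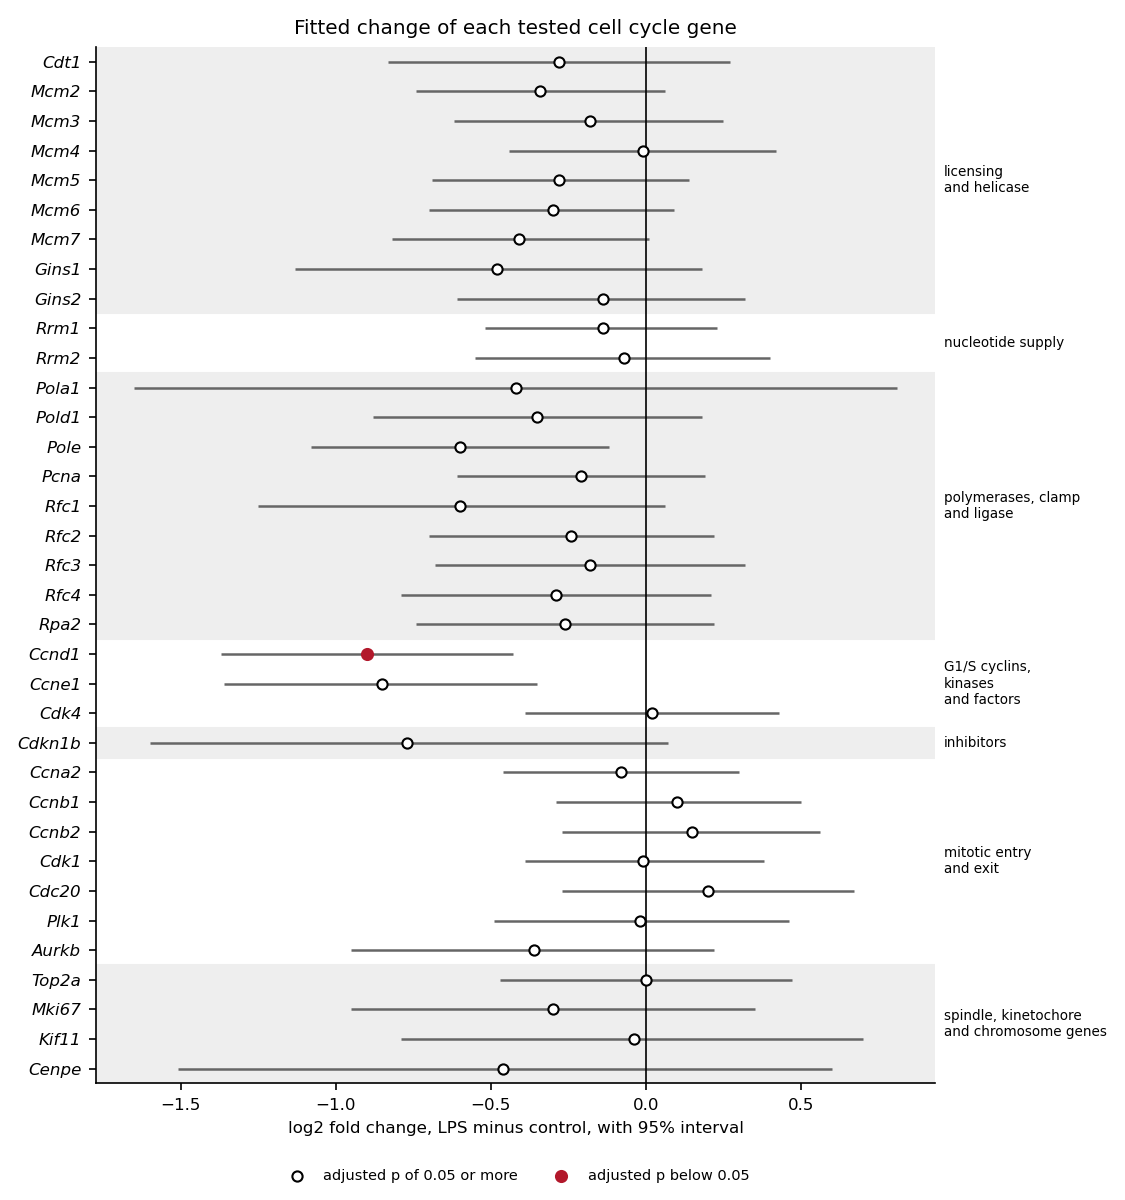
Fitted log2 fold change of each tested cell cycle gene (horizontal axis, LPS minus control) with its 95% interval, grouped by role, filled red where the adjusted p was below 0.05. Ccnd1 at -0.90 is the filled point. Of the genes of mitotic entry and exit, Ccnb1, Ccnb2, Cdk1, Cdc20 and Plk1 lie between -0.02 and 0.20, Ccna2 at -0.08 and Aurkb at -0.36.

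Genes that load and run the replicative helicase had 9 tested members of 11, none called and all with negative values, from -0.48 to -0.01 with a median of -0.28. The 6 subunits of the helicase, Mcm2 to Mcm7, summed to 4352 and 3708 normalised counts in controls and 3479 and 3064 after LPS. Both LPS sums lay below both control sums, and 5 of the 6 subunits showed this on their own, against 21.9% of all records. The exception was Mcm4, with 186 and 182 in controls and 190 and 175 after LPS.

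Mcm2 and Mcm5 had the highest counts of the group. Mcm2 had 1204 and 982 normalised counts in controls and 896 and 832 after LPS. Its log2 fold change was -0.34 (SE 0.182, interval -0.74 to 0.06, edgeR adjusted p 0.445). Mcm5 had 1173 and 1015 against 1008 and 798, so that LPS replicate 1 fell just under control replicate 2. Mcm7, another subunit of the ring, had 650 and 555 in controls and 496 and 411 after LPS. The log2 fold change of Mcm7 was -0.41 (SE 0.189, interval -0.82 to 0.01), with an adjusted p of 0.338 in edgeR.

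Gins1 and Gins2 encode parts of the GINS complex, which joins the helicase at the fork. Gins1 had 36.6 and 48.1 normalised counts in controls and 28.7 and 33.3 after LPS, a log2 fold change of -0.48 with an interval of -1.13 to 0.18. Cdt1, the loader of the helicase, had 153 and 100 against 98.9 and 108, where the higher control stood alone. None of these intervals excluded 0.

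The promoters of this group carry many E2F words, which are shown because E2F factors are the known link between the G1 cyclins and the replication genes. RefSeq promoters of 300 bases on GRCm38.p6 (250 before and 50 after a start) were matched for 38 of the 49 genes, as 43 windows, and Ccnd1 was not among them. Both strands were searched for the 4 words TTTCCCGC, TTTCGCGC, TTTGCCGC and TTTGGCGC, which share their first and last letters. At least 1 word was in 6 of 9 windows of the helicase group, or 66.7%, and in 4 of 13 windows of the polymerase group. The nucleotide supply group had a word in 0 of 3 windows and the G1/S group in 1 of 4. Of all 32851 promoters, 2.26% had one. The word nearest the start is printed in capitals with up to 10 bases on each side, as the strand of the gene reads, so that a capital run that starts with G is the reverse complement of a word.
Cdc6: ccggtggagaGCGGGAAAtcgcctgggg
Cdt1: gaactaccttTTTGGCGCcatggcgcaa
Mcm3: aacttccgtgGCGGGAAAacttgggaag
Mcm5: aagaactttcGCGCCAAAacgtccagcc
Mcm6: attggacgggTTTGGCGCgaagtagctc
Mcm7: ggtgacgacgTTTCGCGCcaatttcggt
These sites lie at chr11:98908003-98908030, chr8:122568037-122568064, chr1:20820276-20820303, chr8:75109350-75109377, chr1:128359735-128359762 and chr5:138171850-138171877. The genes are on the plus strand for Cdc6, Cdt1 and Mcm5 and on the minus strand for Mcm3, Mcm6 and Mcm7. A word is a description of the window and no evidence of binding. The Ccne1 window held none of the 4 words.

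Nucleotide supply was measured by the ribonucleotide reductase genes Rrm1 and Rrm2, whose enzyme makes the building blocks of DNA. Rrm1 had 1106 and 1124 normalised counts in controls and 1047 and 975 after LPS, a log2 fold change of -0.14 with an interval of -0.52 to 0.23. The LPS libraries were the lower ones by a small margin. Rrm2, the subunit that limits the enzyme in S phase, had 241 and 176 against 189 and 204, and its LPS libraries lay between the controls.

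Polymerase, clamp and single-strand binding genes had 9 tested members of 12, all with negative values, from -0.60 to -0.18 with a median of -0.29, and none was called. Both LPS libraries lay below both controls for 5 of them, against 21.9% of all records. Pole, the catalytic subunit of the leading-strand polymerase, had 143 and 161 normalised counts in controls and 109 and 91.9 after LPS. Its log2 fold change was -0.60 (SE 0.218, interval -1.08 to -0.12), and its unadjusted p of 0.0181 became 0.184 after edgeR's values were adjusted.

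Pcna, the sliding clamp, had 613 and 725 normalised counts in controls and 603 and 555 after LPS, a log2 fold change of -0.21 (interval -0.61 to 0.19, edgeR adjusted p 0.73). With the GC and length trend removed its values became 737 and 701 against 571 and 505, and the adjusted p was 0.0433, in a fit that called 4.47% of all records lower and 6% higher. Rfc1, the large subunit of the clamp loader, had 59.1 and 105 in controls and 55.5 and 55.7 after LPS. The log2 fold change of Rfc1 was -0.60 with an interval of -1.25 to 0.06. The smaller subunits Rfc2, Rfc3 and Rfc4 had log2 fold changes of -0.24, -0.18 and -0.29.

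Pola1, the primase-linked polymerase, varied most. Its 14.1 and 93.7 normalised counts in the controls lay on either side of the 34.2 and 52.8 seen after LPS. Its fold change had a standard error of 0.558, the highest among the members. It was called higher without control replicate 2, with a log2 fold change of 1.61, and lower without control replicate 1, with -1.10. No direction can be read for it.

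Genes of mitotic entry and exit had 7 tested members of 8, with a median log2 fold change of -0.01 and values from -0.36 to 0.20. None was called. The 7 genes summed to 2741 and 2605 normalised counts in controls and 2738 and 2661 after LPS. Both LPS sums lay within the control pair. Cdk1, the kinase of mitotic entry, had 484 and 481 in controls and 474 and 487 after LPS. Its log2 fold change was -0.01 (SE 0.174), with a 95% interval of -0.39 to 0.38.

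Ccna2, the cyclin of S and G2 phases, had 684 and 760 normalised counts in controls and 697 and 672 after LPS. Ccnb1 and Ccnb2 encode the B cyclins that activate Cdk1. Ccnb1 had 433 and 509 against 511 and 502, and Ccnb2 had 211 and 222 against 234 and 246. Ccnb2 was the 1 member with both LPS libraries above both controls, with a log2 fold change of 0.15 (interval -0.27 to 0.56, edgeR adjusted p 0.85).

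Cdc20, an activator of the anaphase-promoting complex, had 290 and 207 normalised counts in controls and 304 and 262 after LPS, with a log2 fold change of 0.20. Plk1, the polo-like kinase, had 537 and 355 in controls, and both LPS values of 448 and 428 lay between them. Aurkb, the Aurora kinase of the chromosomal passenger complex, had 103 and 70.1 against 68.4 and 63.6, a log2 fold change of -0.36 with an interval of -0.95 to 0.22. Aurkb was the member of this group with the largest negative value.

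The mitotic promoters differed from the helicase promoters more in their CHR and E2F words than in CCAAT boxes. CHR words (TTTGAA and TTCGAA) were in 5 of 6 windows of mitotic entry and exit genes and 4 of 5 windows of spindle and chromosome genes, against 19.2% of all promoters. The CCAAT box was in all 11 of those windows and in 7 of 9 helicase windows (77.8%), against 37.4% of all promoters. An E2F word was in 1 of the 6 windows of mitotic entry and exit genes, that of Cdk1. It was in 0 of the 5 windows of spindle and chromosome genes. A CHR word and a CCAAT box stood together in 83.3% and 80% of the windows of the 2 groups, in 33.3% of helicase windows and in 7.52% of all promoters. The 100 bases before the start of Cdk1 and Cdc20 are shown as examples with both kinds of word, in capitals, where ATTGG is CCAAT on the other strand.
Cdk1: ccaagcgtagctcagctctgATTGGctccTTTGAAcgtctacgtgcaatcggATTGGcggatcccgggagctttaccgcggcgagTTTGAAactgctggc
Cdc20: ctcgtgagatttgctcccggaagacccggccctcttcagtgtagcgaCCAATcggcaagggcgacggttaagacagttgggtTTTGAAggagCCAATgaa
These windows are chr10:69352913-69353012 and chr4:118437344-118437443, both on the minus strand. The NF-kB consensus, by contrast, was in 1 of the 43 member windows (2.33%), that of Mcm7, and in 4.51% of all promoters.

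Spindle, kinetochore and chromosome genes had 4 tested members of 6, with a median standard error of 0.318 against 0.215 over the 35 genes. Their summed levels were 606 and 1297 normalised counts in the controls and 814 and 990 after LPS. The controls were the lowest and the highest libraries. Top2a, the topoisomerase that untangles chromosomes, had 228 and 328 against 270 and 291. Mki67, the Ki-67 proliferation marker, had 105 and 213 in controls and 120 and 144 after LPS. Kif11, a spindle motor, had 246 and 636 against 373 and 492, and Cenpe, a kinetochore motor, 26.7 and 121 against 50.8 and 62.6. For all 4 genes both LPS values lay between the controls.

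Transcripts of different GC content differed in how the controls compared. Across the 35 members, the log2 ratio of control replicate 1 over replicate 2 had a Spearman correlation of 0.798 with GC content, and that of the LPS libraries 0.44, where the genes share the same pair of libraries. Over all 6924 tested records with a GC value the correlations were 0.662 and 0.266. Pola1 (41.5% GC), Kif11 (42.2%) and Cenpe (42.9%) had control log2 ratios of -2.69, -1.37 and -2.15, while Pold1 (60.7% GC) had 0.66. Without the GC and length trend the controls of Top2a became 276 and 287, but those of Kif11 (314 and 543) and Cenpe (32.7 and 102) remained apart.

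**Figure D4:**
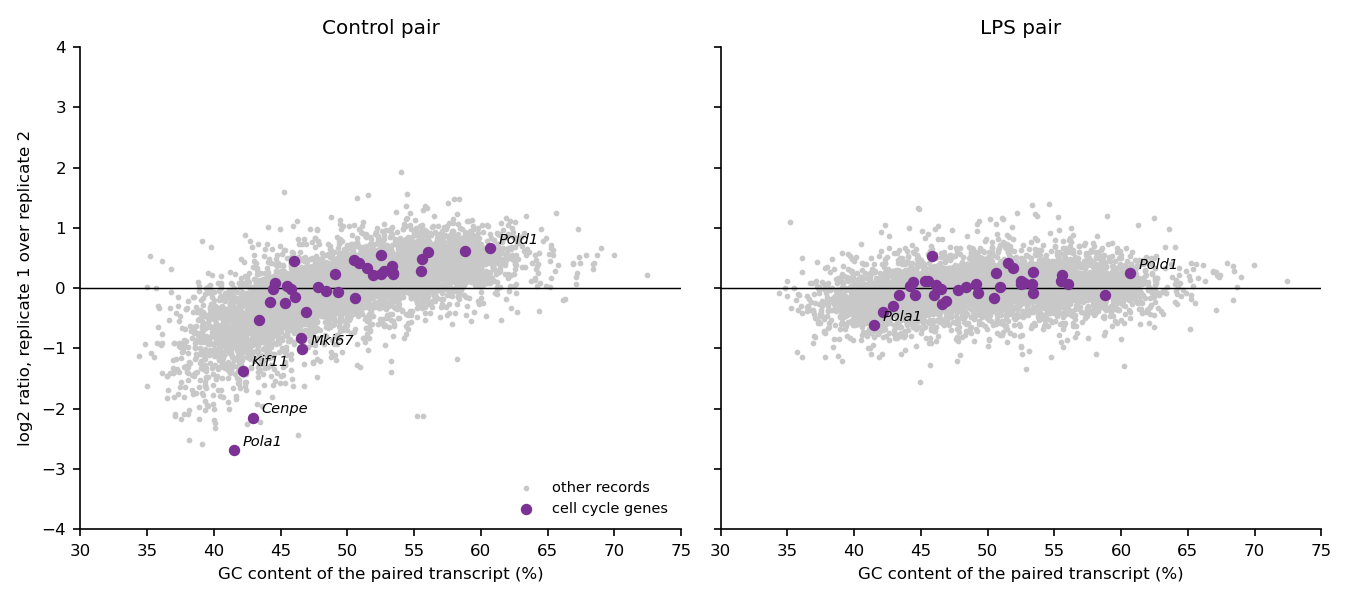
Log2 ratio of replicate 1 over replicate 2 (vertical axis) against GC content of the transcript (horizontal axis, percent) for the control pair and the LPS pair, with the 35 cell cycle genes in purple and other records that average 20 normalised counts or more in grey. In the control pair the ratio climbs with GC content and Pola1 reaches -2.69, whereas the LPS pair is flatter.

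With that trend removed, Ccnd1 (log2 fold change -0.85, edgeR adjusted p 0.00228), Ccne1 and Pcna were the 3 members called lower and none was called higher. The median of the 35 became -0.24 against -0.05 over all records. Both LPS libraries lay below both controls for 20 members, where 28.5% of all records did.

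Further genes of the same processes were taken from lists of other replication, G1/S and G2/M genes. Of 96 tested genes among 141, 5 were lower (Clspn, Brca1, Wdhd1, E2f2 and Ncapd2) and 1 higher (Mxd1), where edgeR called 1.7% of all records lower and 3.82% higher. The DESeq2 Wald test called none of them, with 0.945% of all records called lower and 2.89% higher. Limma-voom called 4 lower (Clspn, Brca1, E2f2 and Ncapd2) and 0 higher, with 105 of all records called lower and 257 higher. These calls thus differed between tests. All 13 untested replication genes and all 13 untested G2/M genes had 2 or more records, but only 13 of the 19 untested G1/S regulators did.

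Among 33 tested of 46 other replication genes, 25 had negative values, and the median log2 fold change was -0.18. Clspn encodes claspin, which carries the checkpoint signal at stalled forks. It had 16.9 normalised counts in each control and 2.77 and 3.91 after LPS, a log2 fold change of -2.30 (SE 0.522, edgeR adjusted p 0.0241, and 0.251 in the DESeq2 Wald test). Brca1, a repair gene, had 28.1 and 33.8 against 9.25 and 9.78 (log2 fold change -1.71). Wdhd1, which ties the helicase to the polymerase, had 54.9 and 93.7 against 27.7 and 36.2 (log2 fold change -1.25), and its edgeR adjusted p of 0.0453 became 0.0569 with DESeq2 size factors. In all 3 genes the LPS libraries lay well below both controls, at modest counts for Wdhd1, low counts for Brca1 and very low counts for Clspn.

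E2f2, an activating member of the E2F family, had 60.5 and 47.3 normalised counts in controls and 23.1 and 16.6 after LPS. The log2 fold change of E2f2 was -1.41 (SE 0.32, edgeR adjusted p 0.0241, and 0.117 in the DESeq2 Wald test). E2f4, a family member that mostly represses, had a log2 fold change of 0.15 with an adjusted p of 0.835 in edgeR. Of the 5 genes called lower, the windows of Clspn, E2f2 and Ncapd2 held an E2F word, those of Brca1 and Wdhd1 held none, and the other E2f2 window held none. An E2F word was in 26.7% of the windows of other replication genes, 23.7% of other G1/S regulators and 7.69% of other G2/M genes. Of all promoters, 2.26% had one. A link between these words and the calls was not tested. The words of Clspn and E2f2, just after the start, are shown as examples, at chr4:126556991-126557018 and chr4:136172303-136172323, both on the plus strand.
Clspn: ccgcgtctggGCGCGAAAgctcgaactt
E2f2: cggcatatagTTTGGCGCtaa

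Mxd1, an antagonist of Myc for their shared partner Max, was the 1 gene called higher among the 14 tested of 33 other G1/S regulators. It had 14.1 and 23.6 normalised counts in controls and 56.4 and 43 after LPS, a log2 fold change of 1.34 (edgeR adjusted p 0.0441, 0.0533 with DESeq2 size factors and 0.208 in the DESeq2 Wald test). Among 49 tested G2/M and mitosis genes the median was -0.07. Ncapd2, a condensin subunit, was called lower, with 108 and 118 against 60.1 and 55.7 (log2 fold change -0.97).

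Of 13 tested p53 and growth arrest genes, 4 were called higher and none lower, where 3.82% and 1.7% of all records were. Btg2, an antiproliferative gene that is also an immediate early gene, rose from 43.6 and 38.8 normalised counts to 209 and 222. Its log2 fold change was 2.39 (SE 0.231, edgeR adjusted p 5.77e-05). Plk2, a polo-like kinase outside mitosis, rose from 101 and 102 to 310 and 346 (log2 fold change 1.69), and Plk3 from 5.63 and 5.06 to 26.8 and 34.2 (log2 fold change 2.50). Btg2, Plk2 and Plk3 were called in every alternative that gave them a value. Gadd45a, a stress-induced brake of the cycle, rose from 2.81 and 1.69 to 15.7 and 10.8 at very low counts, with an edgeR adjusted p of 0.0382. It was called in 8 of the 12 alternatives that gave it a value.

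The other 9 genes did not pass, with log2 fold changes from -1.44 to 0.63. The lowest was Tob1, an antiproliferative gene related to Btg2, with 32.4 and 37.1 normalised counts in controls and 7.4 and 18.6 after LPS (log2 fold change -1.44, edgeR adjusted p 0.0825, and 0.018 with the GC and length trend removed). Pmaip1 had -0.67, Zmat3 -0.06, Ccng1 0.01, Bax 0.14 and Gadd45b 0.57. Tob1 and these further genes were chosen after their values were seen.

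Of 14 tested growth genes known to be bound by Myc, only Odc1, the ornithine decarboxylase of polyamine synthesis, was called, with 2370 and 2034 normalised counts in controls and 5696 and 5367 after LPS. The median of that list was 0.11.

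Clustered core histone genes, whose transcripts are mostly made in S phase, had 44 tested members of 57. Of these, 3 were called lower (H2bc14, H3c2 and H2bc21) and none higher, with a median of -0.47, and both LPS libraries lay below both controls for 32, where 1.7% of all records were called lower and 21.9% lay below. GC content of the tested histone genes ran from 43.8% (H2bc9) to 70% (H2ac13), against a median of 49.9% over all records tested. With the GC and length trend removed, 18 were called lower and their median was -0.42. That fit called 4.47% of all records lower and had a median of -0.05 over all. The number called lower also depended strongly on which library was left out. Their sum was 47321 and 32408 normalised counts in controls and 30195 and 27642 after LPS, so the controls differed from each other by more than the lower control differed from LPS. Most transcripts of this class lack poly(A) tails, which was not checked gene by gene, and the part of library preparation in their values was not tested. H3c2 had 608 and 512 in controls against 345 and 253 after LPS, a log2 fold change of -0.90 (edgeR adjusted p 0.0253).

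**Figure D5:**
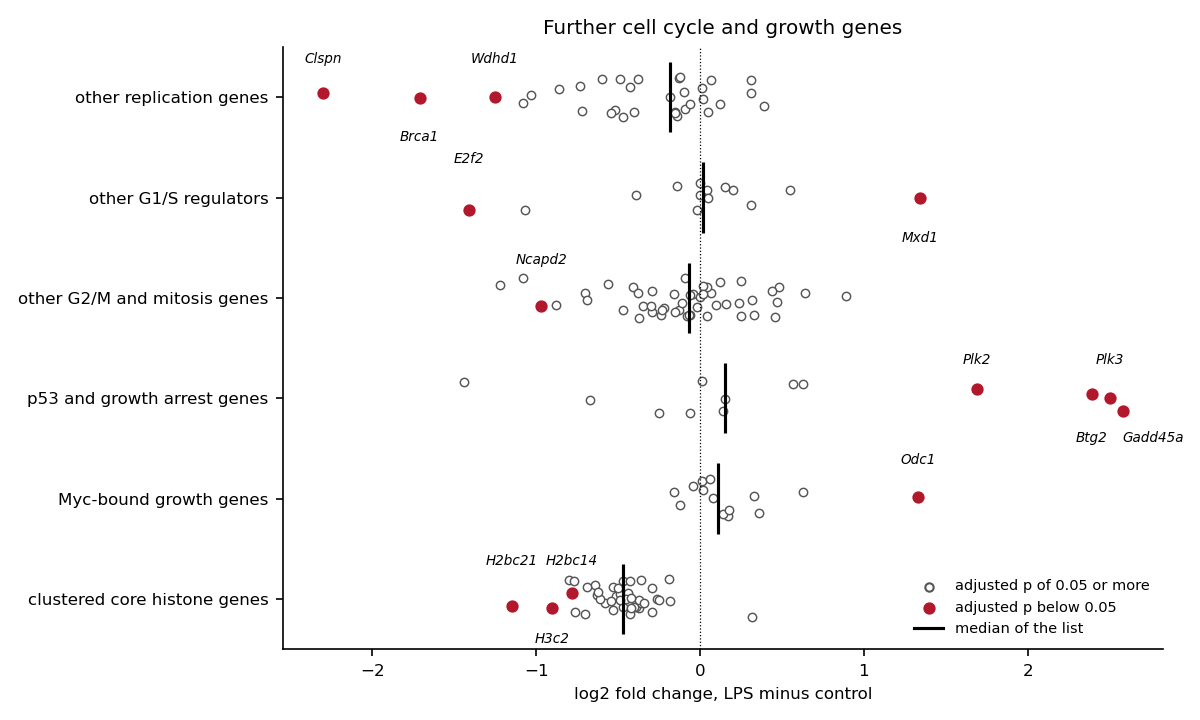
Log2 fold change, LPS minus control (horizontal axis), of the tested genes of 6 further lists, with 1 point per gene, red and labelled where the adjusted p was below 0.05, and a black bar at the median of each list. Histone genes lie almost wholly below 0 with a median of -0.47, and Btg2, Plk2, Plk3 and Gadd45a lie far to the right of the other growth arrest genes.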

How the data were processed

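Ribosomal RNA was removed and directional libraries were made, per the labels' protocols. The build mm10 and the tools HTSeq 0.6.1, TopHat2 2.0.10, Trimmomatic 0.33, CASAVA 1.8.2 and Cufflinks 2.2.1 appear, with no role, per the submitters' processing notes. The authors deposited whole-number counts per RefSeq record, in a table named as normalised. Column totals differ, no whole number up to 228 is skipped in any column, and size factors by median of ratios span 0.741 to 1.22, so the counts were treated as raw. RefSeq tables of GRCm38.p6 gave a symbol to 32483 of 32915 records.

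Records were kept by filterByExpr with a minimum count of 10. The groups were compared with edgeR 4.0.16 (quasi-likelihood, TMM scaling, no covariates, R 4.3.3) on the whole table, with Benjamini-Hochberg adjustment over 6981 records. A normalised count is the count scaled to the mean effective library size of 3108147. Standard errors are the fold change divided by the root of F, with n = 2 per group. DESeq2 1.42.0 and limma 3.58.1 (voom) were alternatives. GC content came from paired GENCODE transcripts for 99.2% of tested records; transcript lengths were not used to rank genes by level. The fits were also run on simulated counts with the same spread for every record and no GC or length trend. Those runs cannot show how the fits behave under the GC trend of these libraries, and their outcome is not reported here. The genes named in full were those past the threshold and, in each role group, those with the highest levels or largest changes, and some smaller members were added after their values were seen. The members and gene lists were chosen with earlier results of these data known.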

Additional observations from a re-analysis of the deposited data

How the results depend on the processing

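The fold changes of Ccnd1 and Ccne1 kept their direction under all 14 alternatives. Of the 35 tested members, 20 kept theirs in every alternative that gave them a value. Leaving out a library moved the number of members called lower from 0 to 10, the number called higher from 0 to 3, and the median of the members from -0.28 to -0.16. The same fits called 165 to 723 records higher and 39 to 581 lower, 0 to 8 other cell cycle genes higher and 0 to 21 lower, and 0 to 42 histone genes lower. A fit without a control library takes its spread from the LPS pair and assumes that the lone control varies likewise.

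Members called lower numbered 2 with no filter on low counts, 3 with the GC and length trend removed, 2 with the replicate block and 8 with both. Replicate numbers are shared between groups by the titles alone (correlation of same-number deviations 0.242), and the block raised the calls over all records to 401 higher and 288 lower, or 560 and 545 with the GC trend also removed. The GC trend alone gave 419 and 312, no filter 209 lower, a mean of at least 50 normalised counts 170 and 51, and the DESeq2 Wald test 66 lower. Other cell cycle genes called higher numbered 0 with DESeq2 size factors, without the 5 largest records, at a mean of at least 50, in DESeq2 and in limma-voom, 3 with no filter, the GC trend or the block, and 5 with both. Those called lower numbered 9 with no filter, 1 at a mean of at least 50, 0 in DESeq2, 11 with the GC trend, 10 with the block and 21 with both. Histone genes called lower numbered 6, 1, 18, 13 and 31 with no filter, a mean of at least 50, the GC trend, the block and both. At a mean of at least 50, 2 growth arrest genes were called, since fewer genes were tested. The cause of the other shifts was not tested.

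Signs turned among members near 0 or split between the controls. Cdk1 had 0.01 without the 5 largest records, with the GC trend removed and with the block as well, and 0.03 with no filter. Mcm4 had 0.02 and Plk1 0.01 with no filter, Plk1 0.01 and Kif11 0.09 in limma-voom, and Plk1 0.0045 and Kif11 0.08 with the block. With the GC trend removed Cdk4 had -0.01, Ccnb1 -0.08 and Top2a -0.05, and with the block as well -0.0047, -0.09 and -0.05. Leaving out a library moved Cenpe from -1.08 to 1.07, Pola1 from -1.10 to 1.61, Kif11 from -0.55 to 0.81, Mki67 from -0.68 to 0.32, Plk1 from -0.30 to 0.31, Top2a from -0.22 to 0.30, Cdk4 from -0.16 to 0.22, Cdc20 from -0.04 to 0.46, Cdt1 from -0.58 to 0.05, Rrm2 from -0.30 to 0.17, Pold1 from -0.66 to 0.01, Rfc2 from -0.46 to 0.01, Mcm4 from -0.06 to 0.05 and Cdk1 from -0.02 to 0.03.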
